A study of Mus musculus domesticus with 12 samples.

Results

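The integrated stress response genes described here are 38 genes named by symbol: the transcription factor ATF4, factors that act around it, and reported targets of it. They were taken from 55385 annotated genes, and all 38 passed the filter on low counts that left 17650 genes to test. By role they fell into 14 stress factors, 11 enzymes of amino acid synthesis, 5 amino acid transporters and 8 cytosolic tRNA synthetases. RNA was sequenced from erythroid precursors and proerythroblasts, early stages of red cell formation, grown from livers of C57BL/6J mouse embryos at stage E14.5. Liver cells were depleted of lineage-marked cells, infected with a retrovirus carrying a short hairpin RNA (shRNA), cultured for 2 days in erythroid expansion medium and sorted for GFP, for intermediate to positive CD71 (the transferrin receptor) and for absence of Ter119, which marks later erythroblasts. The 3 groups of 4 libraries differed in the shRNA. The control hairpin targeted firefly luciferase (shLuc), and the others targeted Dis3 (shDis3) or Exosc10 (shExosc10), the catalytic subunits of the RNA exosome, a complex that trims and degrades RNA. All 3 groups therefore carried a virus and a hairpin, and no uninfected cells are among the libraries. Nothing in the labels ties the replicates to separate litters or cultures, so each p-value measures the spread between these libraries, which may be technical.

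In the integrated stress response, kinases that sense amino acid shortage, misfolded proteins, viral RNA or heme shortage phosphorylate the translation factor eIF2. Most protein synthesis is then lowered, while a few mRNAs with upstream reading frames, Atf4 among them, are translated more. ATF4 protein switches on genes for amino acid synthesis, uptake and tRNA charging, and in erythroid cells the heme-regulated kinase HRI (Eif2ak1) is the best known route into it. RNA counts record the mRNAs of this pathway, not eIF2 phosphorylation or ATF4 protein.

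The Atf4 leader carries the short sequences on which that translational control rests. Below, each start codon of the Atf4 transcript (ENSMUST00000109605.4) is given 5′ to 3′ with flanking bases, and the ATG is in capitals. The sequences are from the GENCODE M21 transcripts of GRCm38, where Atf4 (ENSMUSG00000042406.8) spans chr15:80255184-80257541 on the plus strand.
Upstream start 1: ttttctctcATGgggccttta
Upstream start 2: gcggccaccATGgcgtattag
Upstream start 3: gcctaagccATGgcgctcttc
Annotated start: ccccacaacATGaccgagatg
Counted from the first base of this transcript, the upstream starts lie at bases 120, 399 and 498, and the annotated start lies at base 595. Their frames hold 36, 3 and 59 codons before a stop, and the frame at base 498 runs past the annotated start out of frame, to base 677. Of the 38 genes, 4 had such an overlapping upstream frame in the transcript chosen for each gene (Atf4, Atf5, Ppp1r15a and Psat1), a share of 10.5%, against 17.9% of 20584 protein-coding genes. Any upstream ATG was present in 17 of the 38 (44.7%), against 54.4% of those genes. Both shares lay below those of all genes, so upstream starts describe particular genes here and not the list.

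Levels per length were compared in TPM, a transcript abundance scaled for length and library size, within the control. Sars, Shmt2, Phgdh, Gars, Atf4 and Asns led, with means of 168.3, 166.0, 161.0, 160.7, 148.7 and 128.9 TPM. Vldlr and Slc7a11 were lowest, at 0.695 ± 0.680 and 0.545 ± 0.181 TPM (SD, n = 4). No gene was separated from its neighbour in this order by the range of its libraries. In each of the 3 groups, 25 of the 38 genes had a mean of at least 10 TPM, so most of the pathway was readily measured. The 13 below that level include Trib3, Chac1, Cth, Gpt2, Stc2 and Slc7a11, the genes with several of the largest differences below.

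Total counts lay between 14936178 and 32397192 per library. Dis3 measured 24.7 to 52.4 CPM (counts scaled to the TMM-normalised library size) in shDis3, against 113.4 to 160.5 in shLuc and 116.6 to 196.2 in shExosc10. Exosc10 measured 18.9 to 30.8 CPM in shExosc10, against 85.4 to 113.1 and 80.1 to 141.1 in shLuc and shDis3. Erythroid markers were present throughout, with 17 of 18 listed markers summing to 2483 to 5370 CPM. Granulocyte markers summed to 1092 to 4889 CPM. The 12 macrophage and monocyte markers summed to 91.5 to 185.5 CPM, and 3 of them (C1qa, C1qb and Mrc1) were under 1 CPM in every library, whereas Lyz2 measured 47.7 to 101.5 CPM. The 10 hepatocyte markers summed to 11.0 to 32.7 CPM, and 4 of them (Ttr, Apoa2, Serpina1a and Fgb) were under 1 CPM in every library, whereas Apoa1 measured 3.42 to 27.4 CPM. In such bulk samples, fewer cells of a type and less RNA per cell cannot be told apart.

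Several libraries did not group by label. Across the 17612 tested genes outside the list, shLuc replicate 4 was closest to shDis3 replicate 3 (r = 0.986, against at most 0.946 with the other shLuc libraries). In the same measure shDis3 replicate 4 was closest to shExosc10 replicate 1 (r = 0.981), which reached at most 0.942 with its own group. The library shDis3 4 reached 0.968 with shDis3 3 of its own group. By contrast, shDis3 replicate 2 was closest to shLuc replicate 2 (r = 0.963) and reached at most 0.929 with the other shDis3 libraries. These are correlations across genes of 2 libraries each, a description only. The libraries shLuc 4, shDis3 1 to 4 and shExosc10 1 also had the highest sums of 12 megakaryocyte markers, 330.6 to 467.2 CPM, against 86.7 to 173.4 CPM in the other 6. The same 6 libraries held 57.3 to 121.5 CPM of stem and early progenitor markers, against 13.6 to 24.9 CPM. They also had the highest sums of granulocyte markers, 2100 to 4889 CPM against 1092 to 1684 CPM, and the lowest sums of erythroid markers, 2483 to 4414 CPM against 4521 to 5370 CPM. Tfrc went with the erythroid sum, at 351.4 to 617.8 CPM against 906.4 to 1413 CPM. Gata1 overlapped, at 81.9 to 128.1 CPM against 96.4 to 133.4 CPM. Zfpm1 was highest in shDis3 3, shLuc 4 and shDis3 1 (432.3, 421.5 and 366.9 CPM), and Slc4a1 in shDis3 1 and 2 (122.0 and 102.1 CPM). The granulocyte sum was mostly Mpo, at 1497 to 3746 CPM against 582.8 to 1109 CPM. Other markers of that list went the other way. S100a8, S100a9, Ltf, Camp and Ngp were lower in shLuc 4, shDis3 3, shDis3 4 and shExosc10 1 than in the other 6, though not in shDis3 1 and 2. For S100a9 these values were 43.9 to 74.4 CPM against 123.4 to 218.6 CPM. Values for the comparisons are therefore also given without shLuc 4, shDis3 4 and shExosc10 1, the 3 libraries that an earlier reading of these data had named as standing apart. That choice kept shDis3 2. Since it was made with the data known, the values without the 3 libraries are not independent evidence. The choice removed shLuc 4, the lowest shLuc library for Trib3, Asns, Psph and Cth. It also removed shDis3 4, the highest shDis3 library for Asns, Psph and Mthfd2. A wider difference in these genes could follow from that. Among the libraries kept, only those of shDis3 had the high megakaryocyte sums. Knockdown and that split cannot be told apart there.

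The first comparison asked how the pathway's mRNAs differed after Dis3 knockdown. The list leaned to lower values in shDis3 than in shLuc. In 30 of the 38 the log2 fold change was below 0 and the median was -0.35, while 47.4% of all tested genes were negative and their median was 0.02. With limma on log2(TPM + 1) the median of the 38 was -0.19, with 28 negative. No gene of the list passed an adjusted p of 0.05 in edgeR's quasi-likelihood test with all 12 libraries, and neither did any of the 17650 genes (0%). Dis3, the targeted gene, was itself not called there, with a log2 fold change of -1.78 and an edgeR adjusted p of 0.0581. DESeq2's Wald test called 3 of the 38 lower (Atf4, Trib3 and Gpt2), against 0.136% of all genes, and limma on log2(TPM + 1) called none. At an unadjusted p under 0.05 in edgeR, 13 of the 38 were lower and none higher, against 2.07% of all genes lower at that level. With limma on log2(TPM + 1) 3 of the 38 were at that level in either direction, against 602 of the 17650 genes. In edgeR with a factor for clusters of libraries 6 were, against 690 genes. With clusters from genes of at least 10 CPM, added after the data were seen, 3 were, against 1205 genes. In 6 genes (Atf4, Stc2, Shmt2, Pycr1, Gpt2 and Slc7a11) every shDis3 library lay below every shLuc library in CPM, a pattern found in 0.793% of all genes. In TPM none of the 6 was so separated, though Psph, which overlapped in CPM, was. Atf4 reached 164.4 TPM in shDis3 and went down to 104.8 TPM in shLuc, and the Gpt2 groups met at 1.32 TPM. Without the 3 libraries, 9 of the 38 fell past the adjusted threshold (Atf5, Atf3, Trib3, Stc2, Asns, Psph, Mthfd2, Gpt2 and Cth), against 1.19% of 19126 genes tested there, and the median was -0.60. Without shLuc replicate 4 alone, 4 fell (Trib3, Psph, Gpt2 and Cth), against 0.207% of 19777 genes, and without any other single library none did.

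**Figure D1:**
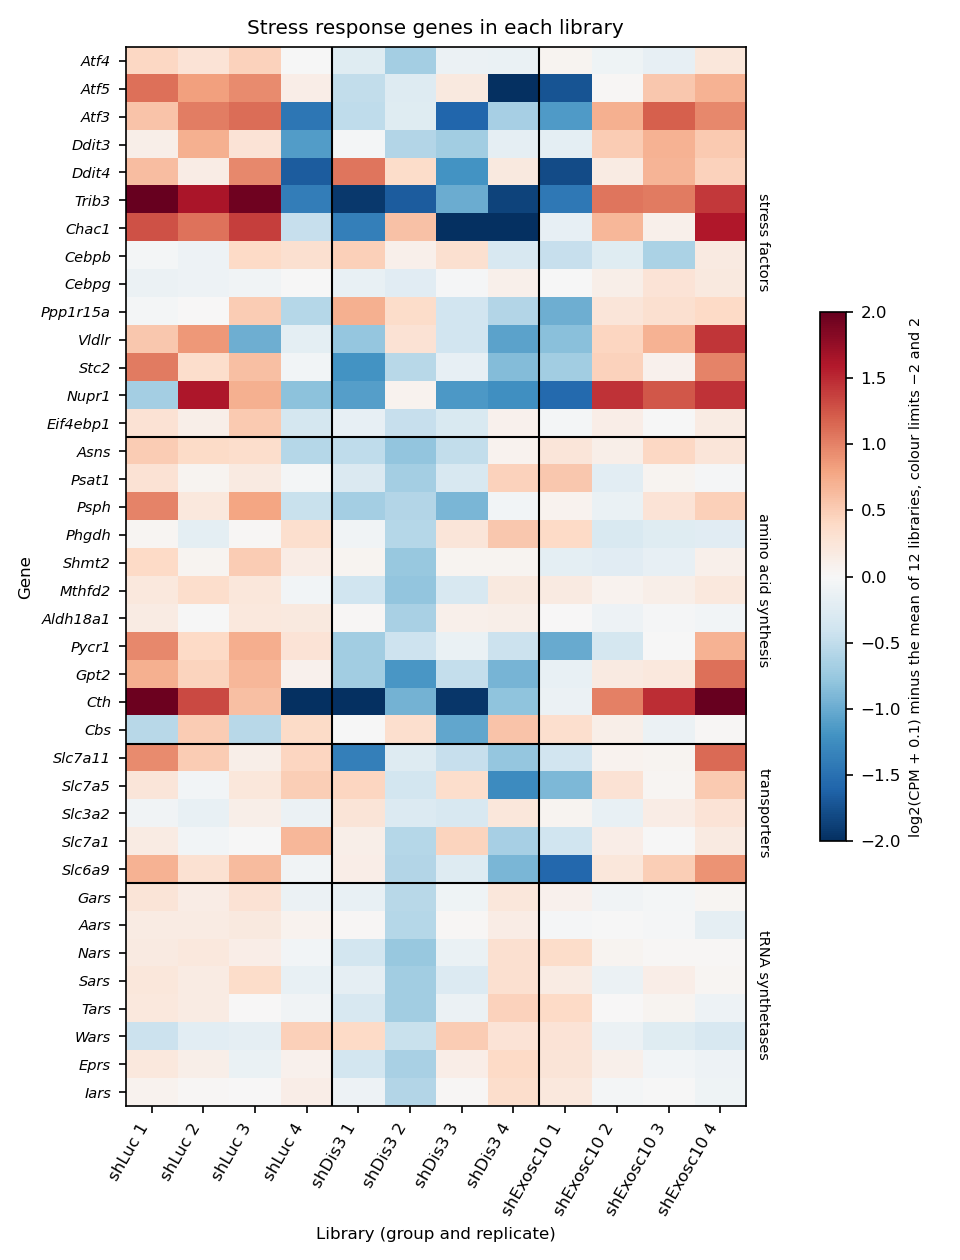
Each of the 38 genes (rows, grouped by role) in each of the 12 libraries (columns), coloured by log2(CPM + 0.1) minus the gene's mean over all libraries, with colours limited at -2 and 2. Trib3 and Cth are low in shLuc 4 and in the 4 shDis3 libraries, whereas most tRNA synthetases vary little apart from shDis3 2.

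Among the 14 stress factors the median log2 difference between shDis3 and shLuc was -0.62, with 10 negative and 6 lower at an unadjusted p under 0.05 in edgeR. The shares of all genes were 47.4% and 2.07%. Trib3 (ENSMUSG00000032715.9, chr2:152337422-152344032, minus strand) encodes a pseudokinase that is induced by ATF4 and restrains it. It measured 31.57, 21.97, 27.46 and 2.648 CPM in shLuc replicates 1 to 4, 1.767, 2.151, 3.470 and 1.888 CPM in shDis3 and 2.539, 14.89, 14.61 and 18.93 CPM in shExosc10, in the same order. All 4 shDis3 libraries were low, but so were shLuc 4 and shExosc10 1, and the shLuc and shDis3 groups overlapped through shLuc 4. The group means were 20.9 ± 12.8, 2.32 ± 0.784 and 12.7 ± 7.08 CPM (SD, n = 4). In edgeR the log2 fold change of Trib3 in shDis3 against shLuc was -3.16 (SE 0.66, adjusted p = 0.776), the largest difference of the list. Without shLuc replicate 4 it fell by 3.54 (edgeR adjusted p = 0.0163), and without the 3 libraries by 3.43 (adjusted p = 2.74e-05).

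Atf4 itself, the central transcription factor, measured 288.7, 261.5, 299.6 and 216.7 CPM in shLuc, 184.1, 134.9, 199.8 and 197.6 CPM in shDis3 and 224.2, 203.3, 194.2 and 254.8 CPM in shExosc10. Every shDis3 library was below every shLuc library, by a small margin for shLuc 4. The log2 fold change was -0.57 (SE 0.18, 95% interval -0.96 to -0.19), with an unadjusted p of 0.00603 and an adjusted p of 1 in edgeR. Stc2, a secreted glycoprotein hormone, measured 11.35, 7.052, 8.349 and 5.263 CPM in shLuc, 2.331, 3.705, 4.887 and 2.961 CPM in shDis3 and 3.334, 7.566, 5.838 and 11.06 CPM in shExosc10. Its shDis3 libraries also lay below all shLuc libraries, and its log2 fold change was -1.20 (SE 0.37, edgeR adjusted p = 1). Chac1, an enzyme that degrades glutathione, measured 3.326, 2.930, 3.604 and 0.9385 CPM in shLuc, 0.4512, 2.032, 0.1735 and 0.1851 CPM in shDis3 and 1.175, 2.144, 1.434 and 4.208 CPM in shExosc10. These low values overlapped between all groups, and the log2 fold change was -1.97 (SE 0.76, edgeR adjusted p = 1).

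Ddit3 encodes CHOP, a factor linked to cell death under lasting stress. It measured 12.88, 19.59, 14.37 and 5.464 CPM in shLuc, 11.65, 7.887, 7.316 and 10.47 CPM in shDis3 and 10.38, 17.03, 19.32 and 17.12 CPM in shExosc10, and its lowest library was a control, shLuc 4. Its log2 fold change in shDis3 against shLuc was -0.49 (SE 0.33, edgeR adjusted p = 1). Ddit3 lies opposite Mars on the genome, which averaged 3485 counts per library against 324 for Ddit3, and the strand setting of the counting is not known, so its counts are uncertain. The bZIP partners of ATF4 stayed close to the control. Cebpb measured 42.50, 40.68, 57.30 and 54.50 CPM in shLuc and 60.49, 46.79, 54.56 and 34.90 CPM in shDis3, and its log2 fold change was 0.01 (SE 0.22, interval -0.46 to 0.48). Cebpg measured 32.63, 32.71, 33.58 and 35.06 CPM in shLuc and 31.92, 30.23, 34.81 and 37.87 CPM in shDis3, with a log2 fold change of 0.01 (SE 0.15, interval -0.30 to 0.32).

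The remaining stress factors were heterogeneous. The transcription factors Atf5 and Atf3 had log2 fold changes of -1.27 and -1.33, and the small stress protein Nupr1 had -1.45 (SE 0.51, 0.58 and 0.74). These 3 genes are low, at most 7.39 CPM in any library, and Atf5 lies opposite the more abundant Nup62. Vldlr, a lipoprotein receptor, had -0.67 and Eif4ebp1, a repressor of cap-dependent translation, had -0.37. Ddit4, which restrains mTORC1, had 0.02 with an SE of 0.56. Ppp1r15a (GADD34), which directs the phosphatase that resets eIF2, had 0.10 (SE 0.34, interval -0.62 to 0.82). The libraries of Ddit4 spread from 6.44 to 47.4 CPM, and its groups overlapped fully.

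**Figure D2:**
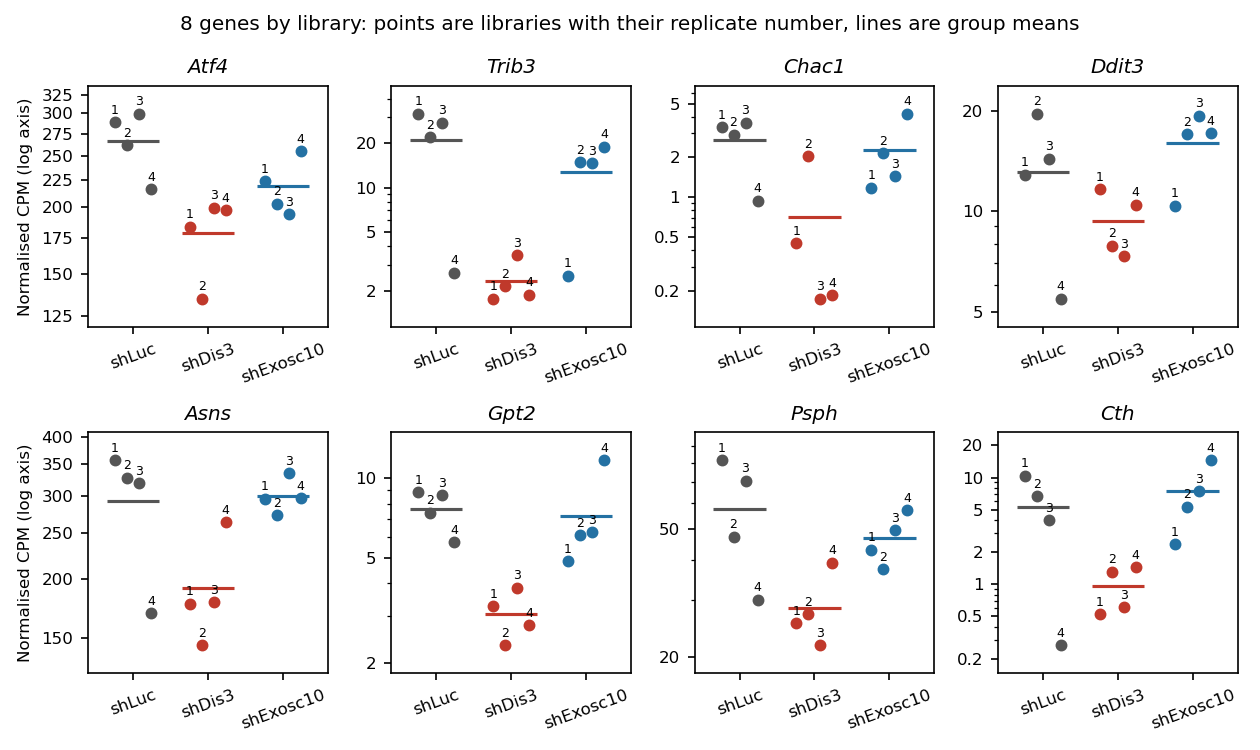
Normalised CPM (log axis) of 8 genes, with 1 point per library labelled by its replicate number and a line at each group mean. For Trib3, Asns, Psph and Cth, shLuc replicate 4 (0.268 to 169.5 CPM across these genes) sits among or below the shDis3 libraries, whereas the Gpt2 points of shDis3 lie below all others.

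Among the 11 enzymes of amino acid synthesis the median log2 difference between shDis3 and shLuc was -0.48. Of them 9 were negative (47.4% of all genes) and 6 were lower at an unadjusted p under 0.05 in edgeR (2.07% of all genes). Gpt2 (ENSMUSG00000031700.11, chr8:85492576-85527560, plus strand), the mitochondrial alanine transaminase, measured 8.869, 7.393, 8.622 and 5.732 CPM in shLuc, 3.271, 2.330, 3.846 and 2.776 CPM in shDis3 and 4.850, 6.069, 6.238 and 11.69 CPM in shExosc10. It was the only gene of the list whose shDis3 libraries lay below all 8 other libraries in CPM, and the share of all genes with that pattern was not computed. In TPM its highest shDis3 library and its lowest shLuc library were both at 1.32. Its log2 fold change was -1.32 (SE 0.30, 95% interval -1.96 to -0.68), with an unadjusted p of 0.000579 and an adjusted p of 0.776 in edgeR. Without shLuc replicate 4 it fell by 1.44 (edgeR adjusted p = 0.0468), and without the 3 libraries by 1.38 (adjusted p = 0.0161).

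Cth (ENSMUSG00000028179.12, chr3:157894248-157925077, minus strand), which makes cysteine from cystathionine, measured 10.45, 6.678, 4.015 and 0.2682 CPM in shLuc, 0.5263, 1.315, 0.6072 and 1.444 CPM in shDis3 and 2.387, 5.341, 7.473 and 14.53 CPM in shExosc10. The lowest of all 12 libraries was shLuc 4, so the control covered a wider range than the knockdown. Its log2 fold change was -2.47 (SE 0.79, edgeR adjusted p = 1). Psph, the last enzyme of serine synthesis, measured 81.56, 47.29, 70.53 and 30.13 CPM in shLuc, 25.49, 27.19, 21.74 and 39.23 CPM in shDis3 and 43.04, 37.42, 49.54 and 57.10 CPM in shExosc10. It had a log2 fold change of -1.01 (SE 0.28, edgeR adjusted p = 0.905), and shLuc 4 lay inside the shDis3 range in CPM. In TPM these groups did not overlap, at 13.45 to 19.74 in shDis3 against 29.4 to 41.59 in shLuc. The share of all genes with that pattern in TPM was not computed. Psph lies opposite Cct6a, which averaged 11911 counts against 1086 for Psph, so its counts are uncertain for the reason given for Ddit3. Without shLuc replicate 4, Cth fell by 2.88 and Psph fell by 1.23 (edgeR adjusted p = 0.0321 and 0.0406).

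Asns makes asparagine and is a classical ATF4 target. It measured 357.3, 328.2, 319.1 and 169.5 CPM in shLuc, 177.2, 144.7, 178.8 and 263.8 CPM in shDis3 and 296.0, 273.1, 335.9 and 296.8 CPM in shExosc10. The first 3 shLuc libraries lay above all shDis3 libraries, and shLuc 4 was at the level of the shDis3 libraries. The log2 fold change was -0.62 (SE 0.24, edgeR adjusted p = 1), and without the 3 libraries it fell by 1.005 (adjusted p = 0.0038). Pycr1, an enzyme of proline synthesis, measured 6.388, 4.293, 5.383 and 3.922 CPM in shLuc, 1.955, 2.390, 2.921 and 2.369 CPM in shDis3 and 1.553, 2.508, 3.203 and 5.284 CPM in shExosc10, with a log2 fold change of -1.05 (SE 0.36, edgeR adjusted p = 1). Shmt2, which passes the serine carbon to folate in mitochondria, measured 443.3, 348.7, 476.2 and 370.7 CPM in shLuc, 346.6, 197.5, 347.1 and 347.4 CPM in shDis3 and 291.7, 286.5, 299.0 and 361.3 CPM in shExosc10. Both genes had all shDis3 libraries below all shLuc libraries, and for Shmt2 the closest libraries were at 347.4 and 348.7 CPM. The Shmt2 log2 fold change was -0.40 (SE 0.20, edgeR adjusted p = 1).

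Aldh18a1, which starts proline synthesis from glutamate, measured 128.0, 114.0, 132.3 and 130.2 CPM in shLuc, 116.5, 73.02, 121.8 and 123.8 CPM in shDis3 and 115.3, 105.9, 112.2 and 110.0 CPM in shExosc10. Its log2 fold change was -0.21 (SE 0.18), and apart from shDis3 2 its libraries lay close together. Mthfd2, the next mitochondrial folate enzyme after Shmt2, had -0.48 and Psat1, the middle enzyme of serine synthesis, had -0.27. Phgdh, which opens serine synthesis, had 0.03 (SE 0.24, interval -0.48 to 0.54) and Cbs, which acts just before Cth, had 0.04 (SE 0.45). Within the serine route the first enzyme thus had a value near 0 and the last had a negative one, without a test of that contrast.

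Of the 5 transporters, 4 were negative in shDis3 against shLuc, and the median log2 fold change was -0.31. Slc7a11, the cystine importer, measured 6.599, 4.838, 3.650 and 4.559 CPM in shLuc, 1.241, 2.808, 2.429 and 1.925 CPM in shDis3 and 2.576, 3.560, 3.503 and 7.485 CPM in shExosc10. Its shDis3 libraries all lay below its shLuc libraries, while its shExosc10 libraries overlapped with both. The log2 fold change in shDis3 was -1.23 (SE 0.38, edgeR adjusted p = 1), and it was the only transporter at an unadjusted p under 0.05. Slc6a9 (GlyT1), which brings in the glycine that heme synthesis uses, measured 20.27, 15.40, 19.43 and 11.87 CPM in shLuc, 13.76, 8.306, 10.47 and 6.625 CPM in shDis3 and 4.168, 14.69, 17.71 and 23.39 CPM in shExosc10. The lowest library was shExosc10 1, and the log2 fold change in shDis3 was -0.77 (SE 0.40, edgeR adjusted p = 1). Slc7a1, the cationic amino acid transporter, measured 172.9, 149.0, 155.0 and 246.4 CPM in shLuc, 168.1, 104.9, 210.8 and 98.01 CPM in shDis3 and 117.8, 169.8, 154.4 and 175.4 CPM in shExosc10, with a log2 fold change of -0.31 (SE 0.26). Slc3a2, the heavy chain shared by several transporters, measured 137.2, 130.8, 156.3 and 132.6 CPM in shLuc, 172.2, 119.7, 115.3 and 170.0 CPM in shDis3 and 150.5, 130.4, 160.9 and 175.2 CPM in shExosc10, with a log2 fold change of 0.05 (SE 0.18). Slc7a5 (LAT1), its leucine-transporting partner, had -0.31 (SE 0.34) and was lowest in shDis3 4 and shExosc10 1, at 69.5 and 89.2 CPM.

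The tRNA synthetases, which load amino acids onto tRNAs, differed least. Their log2 fold changes ran from -0.33 (Sars) to 0.27 (Wars), with a median of -0.20, 7 of 8 negative and none at an unadjusted p under 0.05. Sars measured 210.1, 201.5, 232.2 and 162.5 CPM in shLuc, 157.9, 110.7, 148.5 and 223.9 CPM in shDis3 and 200.5, 165.8, 196.4 and 184.7 CPM in shExosc10. Nars measured 265.6, 272.1, 258.1 and 226.1 CPM in shLuc, 181.5, 138.1, 212.6 and 293.0 CPM in shDis3 and 300.7, 243.8, 237.2 and 238.1 CPM in shExosc10. In both, shDis3 2 was the lowest library and shDis3 4 was as high as the controls or higher. Gars measured 476.1, 441.3, 482.8 and 365.3 CPM in shLuc, 356.8, 271.3, 373.7 and 464.0 CPM in shDis3 and 420.1, 376.4, 384.9 and 406.0 CPM in shExosc10, with a log2 fold change of -0.27 (SE 0.18, interval -0.65 to 0.11). Aars measured 288.4, 287.4, 293.3 and 270.4 CPM in shLuc, 262.0, 172.0, 262.0 and 285.9 CPM in shDis3 and 252.2, 255.6, 252.5 and 225.8 CPM in shExosc10, with -0.21 (SE 0.17). The 95% intervals of these 4 abundant genes reached no lower than -0.77, for Sars. The library shDis3 2 had the smallest total and the most counts on olfactory receptor genes. These were 601.5 CPM without TMM scaling, against 7.0 to 328.0 CPM in the other libraries. The part of depth and background in the tRNA synthetase values, or in the likeness of libraries across labels, was not tested.

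**Figure D3:**
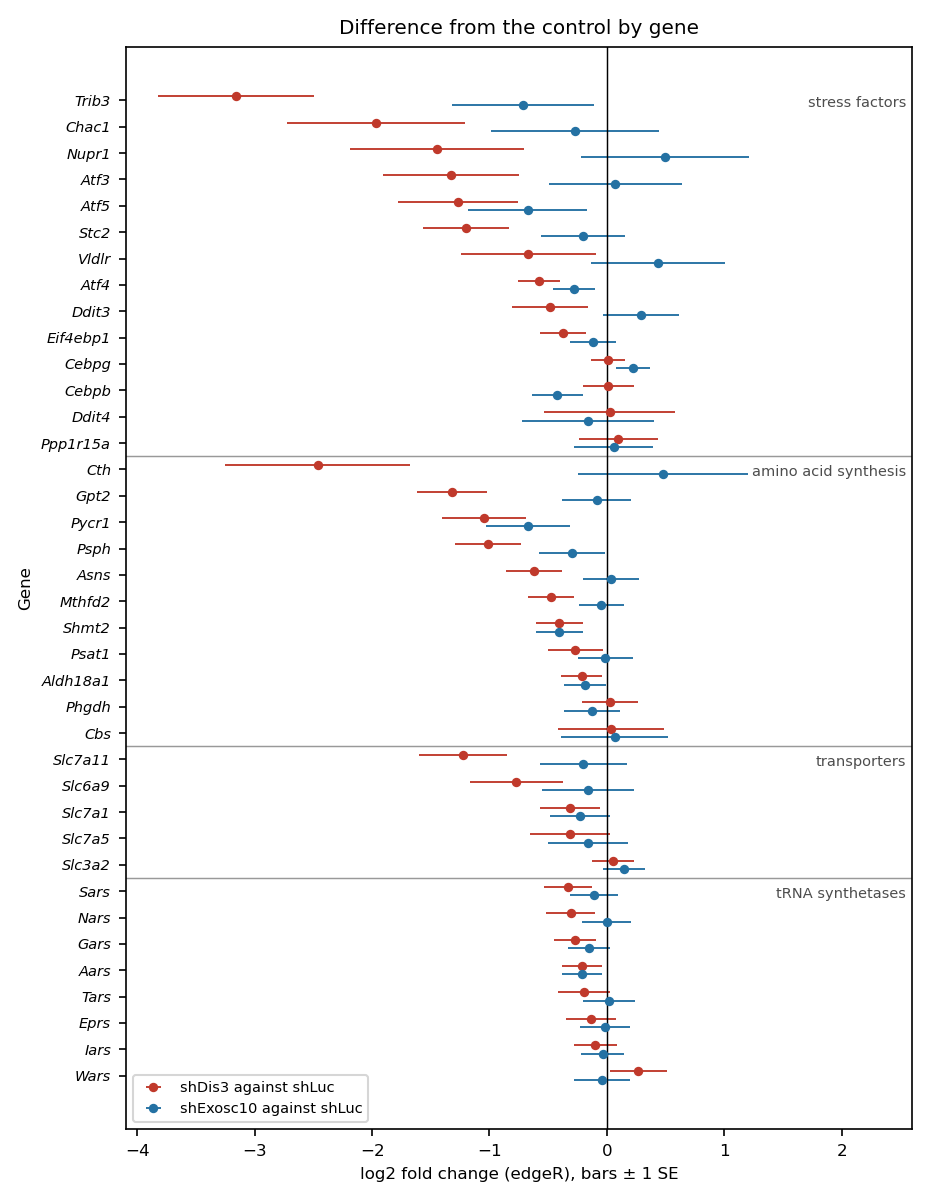
log2 fold change of each gene (edgeR, 12 libraries) in shDis3 (red) and shExosc10 (blue) against shLuc, with bars of 1 SE, ordered within each role. The red points reach -3.16 for Trib3 and -2.47 for Cth and stay between -0.33 and 0.27 for the tRNA synthetases, and the blue points lie between -0.71 and 0.50.

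The second comparison asked the same of Exosc10 knockdown, against the same shLuc libraries. The 38 genes were close to the control, with 27 negative log2 fold changes and a median of -0.11, against a median of 0.02 and 47.8% negative for all genes. With limma on log2(TPM + 1) the median was -0.025, with 20 negative and 18 positive. None passed the adjusted threshold in edgeR, where 0.00567% of all genes did (Exosc10 itself), nor in DESeq2 or limma. In edgeR none had an unadjusted p under 0.05, against 1.19% of all genes lower at that level. In DESeq2 2 of the 38 had one, against 548 of all genes in either direction. By role the medians were -0.14 for stress factors, -0.09 for synthesis enzymes, -0.16 for transporters and -0.04 for tRNA synthetases. Aars was the only gene with all shExosc10 libraries below all shLuc libraries, a pattern of 1.46% of all genes, at a log2 fold change of -0.21 (SE 0.17). Cebpg was the only one with all of them above, by 35.2 against 35.1 CPM at the closest, a pattern of 1.02% of all genes, at a log2 fold change of 0.22 (SE 0.15). The shExosc10 values of Cebpg were 35.20, 38.31, 42.50 and 40.31 CPM. In TPM neither Aars nor Cebpg was so separated. Cebpb had -0.42 (SE 0.22), and its shExosc10 values were 31.68, 36.62, 28.06 and 49.32 CPM. Atf4 had -0.28 (SE 0.18, interval -0.66 to 0.10). For Trib3 the value was -0.71 with a wide 95% interval of -2.01 to 0.58, and the low libraries were shLuc 4 and shExosc10 1. Asns had 0.03 (SE 0.24) and Ddit3 had 0.29 (SE 0.32). Without the 3 libraries the median was -0.12, and again no gene of the list passed.

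The third comparison set shDis3 directly against shExosc10, which tests whether the knockdowns differed from each other. It shares the shDis3 libraries with the first comparison. Here 32 of the 38 log2 fold changes were negative, with a median of -0.26, against 48.8% negative and a median of 0.01 for all genes. With limma on log2(TPM + 1) 22 were negative and the median was -0.081, and without shDis3 replicate 2 the edgeR median was -0.17. None passed the adjusted threshold in edgeR, where 0.0113% of all genes did (Dis3 and Exosc10), while DESeq2 called 3 lower (Trib3, Gpt2 and Cth), against 0.357% of all genes, and limma none. At an unadjusted p under 0.05 in edgeR, 12 were lower and none higher, against 2.79% of all genes lower. With limma on log2(TPM + 1) 4 were at that level in either direction, against 640 of all genes. In edgeR with a factor for clusters of libraries 6 were, against 1216 of all genes. Asns, Gpt2 and Cth had all shDis3 libraries below all shExosc10 libraries in CPM, a pattern of 1.8% of all genes. In TPM this held for Gpt2 and Cth but not for Asns, which reached 124.9 in shDis3 and went down to 116.6 in shExosc10. Cth was -2.94 (SE 0.80, edgeR adjusted p = 0.666), Trib3 was -2.45 (SE 0.65, adjusted p = 0.666) and Gpt2 was -1.23 (SE 0.30, adjusted p = 0.666). Nupr1 was -1.94 (SE 0.75), Ddit3 was -0.77 (SE 0.33) and Asns was -0.65 (SE 0.24), with edgeR adjusted p-values of 0.769, 0.792 and 0.769. By role the medians were -0.68 for stress factors, -0.38 for synthesis enzymes, -0.15 for transporters and -0.12 for tRNA synthetases. Without the 3 libraries 7 genes fell past the threshold (Atf3, Ddit3, Trib3, Asns, Psph, Gpt2 and Cth), against 1.2% of 19126 genes. With a factor for clusters of libraries built from abundant genes, a setting added after the data were seen, the median came to -0.02. There 2 of the 38 had an unadjusted p under 0.05 in edgeR, against 972 of all genes.

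The libraries that resembled each other across labels offer a closer look at single pairs, without replicates and so without a test. In shDis3 replicate 3 against shLuc replicate 4, 26 of the 38 genes were lower, the median difference was -0.10 on the log2 scale, and 36 lay within 1. Over all tested genes 45.2% were lower in shDis3 3, with a median of 0.00. Trib3 was 3.47 CPM in shDis3 3 and 2.65 in shLuc 4, and Asns was 178.8 and 169.5 CPM. In shDis3 replicate 4 against shExosc10 replicate 1, 16 genes were lower and 22 higher, with a median of 0.08, and again 36 lay within 1. For all tested genes 45.7% were lower in shDis3 4, and the median was 0.0. Besides Chac1, the gene of the first pair further apart than 1 was Cbs, at -1.45, and that of the second pair was Ddit4, at 1.99. Gpt2 was 2.78 and 4.85 CPM there, Cth was 1.44 and 2.39 CPM, and Trib3 was 1.89 and 2.54 CPM. Chac1 differed in each pair, by -2.01 and -2.25, from at most 31 counts in a library. On the log2 scale Trib3 differed by 0.38 and -0.41 within these pairs. The pairs were chosen for their likeness over all genes, and shLuc 4 and shExosc10 1 had the lowest Trib3 of their groups. Small differences within the pairs could follow from that choice, so they are not set against the differences between groups. The share of all genes within 1 was not computed.

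Some genes that respond to low oxygen split the libraries in the same way. Bnip3, a mitophagy receptor induced by hypoxia, measured 107.0, 103.3, 126.3 and 14.1 CPM in shLuc, 13.1, 13.4, 18.0 and 22.7 CPM in shDis3 and 17.6, 80.7, 115.3 and 101.2 CPM in shExosc10. Other genes of that list did not split so, and Mxi1, an antagonist of MYC, measured 45.4 CPM in shLuc 4 and 46.2 and 48.0 CPM in shDis3 1 and 3, within the 41.0 to 49.1 CPM of the other 3 shLuc libraries. All 16 tested hypoxia genes were negative in shDis3 against shLuc (median -0.72), and 13 had an unadjusted p under 0.05 in edgeR. Of all tested genes 47.4% were negative there and 2.07% were lower at that level. None passed the adjusted threshold. In shExosc10 their median was -0.15. Ndrg1, a hypoxia-induced differentiation gene, had -2.33 (SE 0.56, edgeR adjusted p = 0.823) in shDis3. Sums of megakaryocyte markers were 86.7 to 467.2 CPM in shLuc, 330.6 to 410.5 in shDis3 and 139.7 to 351.2 in shExosc10. Whether the hypoxia genes and cell type markers had a part in the differences of the stress response genes was not tested.

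**Figure D4:**
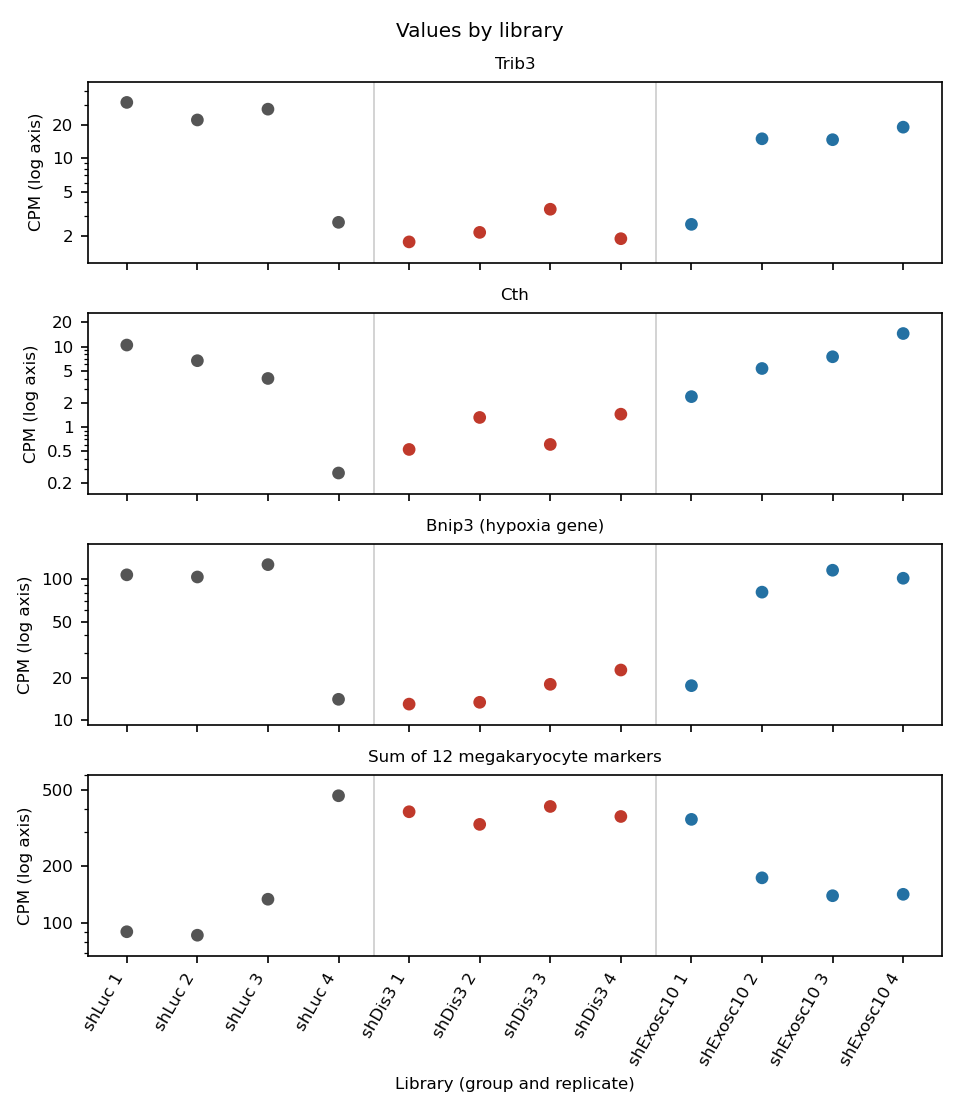
CPM per library (log axes) of Trib3, Cth, the hypoxia gene Bnip3 and the sum of 12 megakaryocyte markers, with 1 point per library and colours for the groups. Bnip3 is at 13.1 to 22.7 CPM in shLuc 4, the shDis3 libraries and shExosc10 1 and at 80.7 to 126.3 CPM elsewhere, and the marker sum is highest in those same 6 libraries.

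The upstream arm of the pathway lay near the control. Of 8 eIF2 kinases and their activators, 4 were negative and 4 positive in shDis3 against shLuc, with a median of 0.00 and none at an unadjusted p under 0.05. Eif2ak1 (HRI), the heme-regulated kinase, measured 113.0, 121.6, 123.4 and 108.9 CPM in shLuc, 137.1, 105.2, 118.2 and 75.2 CPM in shDis3 and 83.4, 145.3, 132.2 and 122.2 CPM in shExosc10. Its log2 fold change in shDis3 was -0.10 (SE 0.21), and shDis3 4 and shExosc10 1 were its lowest libraries. Eif2ak4 (GCN2), which senses uncharged tRNA, had -0.09 (SE 0.20) in shDis3 and -0.36 (SE 0.20) in shExosc10. The mitochondrial stress relays Oma1 and Dele1 had 0.35 (SE 0.25) and -0.27 (SE 0.21) in shDis3. The 12 genes for eIF2, its exchange factor eIF2B and the phosphatase had a median of -0.02, with Eif2s2 at -0.30 and Eif2b4 at 0.35, and none at an unadjusted p under 0.05.

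Other reported ATF4 targets leaned less to one side than the 38 genes. Of 25 tested from 27 listed, 16 were negative in shDis3 against shLuc, with a median of -0.17. An unadjusted p under 0.05 in edgeR was found for 4, all lower (Ero1l, Pck2, Slc1a4 and Slc7a3). Of all tested genes 47.4% were negative and 2.07% were lower at that level. Ero1l, an oxidase of the endoplasmic reticulum that is also on the hypoxia list, measured 220.4 ± 60.03, 99.1 ± 17.8 and 185.6 ± 32.3 CPM in shLuc, shDis3 and shExosc10 (SD, n = 4). Its log2 fold change in shDis3 was -1.15 (SE 0.22, edgeR adjusted p = 0.507). Pck2, the mitochondrial PEP carboxykinase, had -1.07 (SE 0.37, edgeR adjusted p = 1). The 12 other cytosolic tRNA synthetases had a median of -0.10, and Cars was the only one at an unadjusted p under 0.05, with -0.44 (SE 0.19), followed by Lars with -0.42 (SE 0.22). The 21 tested enzymes of amino acid and one-carbon metabolism outside the list had a median of -0.03 and none at that level. Aldh4a1 and Prodh, which break down proline, had positive values of 0.47 (SE 0.26) and 0.93 (SE 0.52).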

How the data were processed

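The 12 libraries were made from total RNA with a low-input stranded kit, per the labels' protocols. STAR 2.5.3a, RSEM 1.3.0 and the build GRCm38 (mm10) are listed without roles in the submitters' processing notes. Which annotation release and strand setting were used is not given in the sources used here. RSEM expected counts (estimated read numbers, not always whole) and TPM per gene were deposited by the authors, per the file headers. Of expected counts above 0, 10.0% were not whole within 0.005, and all were rounded.

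Symbols came from GENCODE M21, with 55144 of 55385 identifiers matched without their version. Ddit3 has a further identifier at 0 counts in all libraries, which was not used. Of the 38 genes, 19 overlap another annotated gene, so their counts are uncertain without the strand setting. Counts were fitted with edgeR 4.0.16 in R 4.3.3 (quasi-likelihood, TMM, default filter by group, group as the only term, all 12 libraries). The Benjamini-Hochberg adjustment covered every tested gene, genes under an adjusted p of 0.05 were called, and intervals are 95%. The biological coefficient of variation was 60%. On simulated counts (15832 genes) the test for shDis3 against shLuc recovered 40% of genes changed 2-fold and 97% of those changed 4-fold. Only genes above a minimum mean CPM were changed there, and each gene was drawn independently, without the likeness of libraries across labels. These shares may therefore not hold for the low genes of the list or for libraries such as these. Alternatives used DESeq2 1.42.0 and limma 3.58.1 (log2 of TPM plus 1 or 0.1), no filter, other covariates and fewer libraries. No pair of libraries was a duplicate (lowest chi-square per degree of freedom 13.1).

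The genes, the other lists and the 3 libraries left out were chosen with earlier results of these data known. By rule, values in every library are given for 22 genes: Atf4, Ddit3, Trib3, Chac1 and Asns, and in each role the 3 genes with the smallest unadjusted p in each knockdown against shLuc. Of the other lists, Eif2ak1, Eif2ak4 and the 2 genes of each list with the smallest unadjusted p in shDis3 are named. Further genes named were chosen after their values were seen. Promoter and protein sequences were not used here.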

Additional observations from a re-analysis of the deposited data

Results flagged for a closer look

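In each group of 4 libraries the highest and lowest value of each of the 38 genes was checked for a wide gap to the nearest other library, relative to the range of the group (Dixon's criterion). Of 114 groups checked, 12 held such a library, and chance gives about 1 in 20 groups. Genes of 1 library are not independent, so the number of such values says little by itself.

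In shLuc replicate 4, Trib3 (2.648 CPM), Chac1 (0.9385 CPM) and Asns (169.5 CPM) lay far below the other control libraries. In shExosc10 replicate 1, Trib3 (2.539 CPM), Ppp1r15a (35.62 CPM) and Nupr1 (0.3031 CPM) lay far below their group, while Phgdh (216.3 CPM) and Nars (300.7 CPM) lay far above it. In shDis3 replicate 2, Shmt2 (197.5 CPM) and Aldh18a1 (73.02 CPM) lay far below the other shDis3 libraries, while Nupr1 (1.135 CPM) lay far above them. In shExosc10 replicate 4, Aars (225.8 CPM) was far below its group, which otherwise spanned 252.2 to 255.6 CPM. Of the 12 values, 8 came from shLuc 4 and shExosc10 1, which also stood apart across the genes outside the list.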

How the results depend on the processing

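Chac1 had at most 31 counts in the matched libraries, and the biological coefficient of variation was 60%. No direction reversed in a called result. Calls in shDis3 against shLuc depended on the method and on shLuc 4. Members of the list called there numbered 0 as reported, 3 with DESeq2, 3 with no filter on low counts (Trib3, Psph and Cth), 9 without the 3 libraries and 0 to 4 when 1 library was left out. Their median log2 fold change of -0.35 became -0.60 without the 3 libraries, -0.19 with limma on log2(TPM + 1) and -0.215 with the added clusters named below, and lay between -0.51 and -0.23 with 1 left out. Genes called there numbered 0 as reported, 1 with DESeq2 size factors, 33 with DESeq2, 123 with no filter, 1 with a factor for clusters of libraries, 2 with clusters from genes of at least 10 CPM (added after seeing the data), 772 without the 3 libraries and 0 to 146 with 1 left out. In shExosc10 against shLuc, called members stayed at 0 in every setting, with a median of -0.025 with limma on log2(TPM + 1) and of -0.17 to -0.04 when 1 library was left out. Genes called there numbered 1 as reported, 8 with DESeq2, 0 with limma on log2(TPM + 1) or log2(TPM + 0.1), 10 with no filter, 3 without the 3 libraries, 2 with the added clusters and 0 to 2 with 1 left out. In shDis3 against shExosc10, called members numbered 0 as reported, 3 with DESeq2, 2 with no filter and 7 without the 3 libraries, and their median became -0.081 with limma on log2(TPM + 1), -0.166 without shDis3 2 and -0.019 with the added clusters. Genes called there numbered 2 as reported, 79 with DESeq2, 0 with limma at either pseudocount, 179 with no filter, 1 with only the 2 groups, 1 with the replicate block, 617 without the 3 libraries and 1 to 2 with 1 left out. Same-numbered libraries deviated together with r of -0.47 to 0.77, so the numbers were not taken as pairs. With the replicate block the medians were -0.36, -0.11 and -0.26 and no member was called. The causes were not tested.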

Other observations

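Genes of the other arms of the endoplasmic reticulum stress response, driven by ATF6 and XBP1, leaned the other way from the ATF4 genes. Of 16 tested, 14 had a positive log2 fold change in shDis3 against shLuc, with a median of 0.22 and a range of -0.21 to 0.48. In shDis3 against shExosc10 all 16 were positive, with a median of 0.20, and in shExosc10 against shLuc the median was 0.02. Of all tested genes 47.4% were negative in shDis3 against shLuc and 48.8% in shDis3 against shExosc10. None of them had an unadjusted p under 0.05 in edgeR in any of the 3 comparisons. Pdia4, a disulfide isomerase, measured 181.0 ± 65.1, 251.9 ± 95.7 and 193.8 ± 85.2 CPM in shLuc, shDis3 and shExosc10 (SD, n = 4). It was 163.6 to 387.9 CPM in shLuc 4, the 4 shDis3 libraries and shExosc10 1, the libraries with the highest sums of megakaryocyte markers, and 141.1 to 162.4 CPM in the other 6. Calr, a chaperone that binds calcium, split in the same way, with 859.1 to 1690 CPM against 550.7 to 723.8 CPM. The part of these libraries in the differences was not tested. Sdf2l1, a chaperone cofactor, measured 28.6 ± 11.5, 36.9 ± 4.64 and 29.9 ± 7.42 CPM. The main chaperone of the endoplasmic reticulum, Hspa5 (BiP), measured 365.8, 413.2, 382.5 and 609.7 CPM in shLuc, and its highest libraries were shExosc10 1 (834.9 CPM) and shDis3 4 (788.3 CPM).

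The 17 mitochondrial tRNA synthetases had medians of 0.01 in shDis3 and 0.00 in shExosc10 against shLuc. Pars2 (prolyl) was the only one at an unadjusted p under 0.05 in shDis3, with a log2 fold change of 0.59 (SE 0.26, edgeR adjusted p = 1), followed by Mars2 (methionyl) with 0.28 (SE 0.16).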
